A study of Mus musculus with 35 samples.

Results

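The regions described here are 2747 stretches of mouse cranial neural crest chromatin that carried the repressive mark H3K27me3 together with the promoter mark H3K4me3, and that coincided with a UTX peak. They were chosen from 17379 H3K27me3 regions called in wild-type crest on chromosomes 1 to 19 (genome build mm9). A region was kept when it was under 10000 bp wide and shared at least 1 bp with a wild-type H3K4me3 peak and with a UTX peak. Of the regions left out, 7313 had an H3K4me3 peak but no UTX peak, 6273 had no H3K4me3 peak, and 1046 were 10000 bp or wider. The wild-type peak calls, levels and overlaps that chose the regions are given below as description, with no test. No genes and no sequences are printed, since the peaks were not assigned to mm9 genes and no mm9 sequence was used here.

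All crest cells came from Wnt1-Cre, Rosa-Tomato embryos at stage E12.5 and were sorted for Tomato fluorescence, with dead cells that take up DAPI discarded. The Wnt1-Cre transgene, which acts in the neural crest lineage, was also carried by the controls. Each mark was profiled in 3 wild-type male libraries (WT Wnt1-Cre, here wt1 to wt3), 3 female knockout libraries (Utx fl/fl, Wnt1-Cre; fko1 to fko3) and 1 male knockout library (Utx fl/y, Wnt1-Cre; mko1). Knockout females were thus compared with wild-type males, so that sex and genotype cannot be told apart in that comparison. Chromatin from these cells was digested with micrococcal nuclease without fixation. UTX was mapped in 1 library of O9-1, a line of cranial neural crest isolated at stage E8.5 from wild-type Wnt1-Cre, Rosa-GFP cells, cultured and lightly fixed before digestion. The UTX peaks therefore come from another stage, from cultured cells and from a single library, and no UTX map of a knockout was used.

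UTX, the product of the X-linked gene Kdm6a, is a demethylase that removes methyl groups from lysine 27 of histone H3. It works in complexes with the H3K4 methyltransferases MLL3 and MLL4, and also has functions that do not need its enzymatic activity. H3K27me3 is deposited by Polycomb repressive complex 2 and marks silent developmental genes, whereas H3K4me3 marks the start sites of active or poised genes. Chromatin with both marks is called bivalent, and is known for keeping developmental regulators silent but inducible. In a population of cells the marks may sit on the same nucleosome, on different alleles or in different cells, and these cases cannot be told apart here. Uty, the Y-linked relative of Kdm6a, remains in the male knockout and has little demethylase activity.

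Library sizes were similar for H3K27me3, at 15070248 to 18248985 counts over all autosomal peak entries, and ranged from 22221560 to 39366680 for H3K4me3. Replicates of a genotype differed by little more than counting noise, with a chi-square per degree of freedom of 1.05 to 1.19 for H3K27me3 and 1.10 to 1.44 for H3K4me3. Between wild-type and female knockout libraries it was 3.80 to 4.64 and 4.38 to 8.94. The labels do not say that replicates came from separate embryos, so the p-values below measure only the spread between these libraries, which may be technical. In the 6 matching RNA libraries Kdm6a was read at 47.3 and 55.5 CPM (read counts scaled to a common library size) in wild type, 39.7 and 30.8 CPM in the male knockout and 49.7 and 62.7 CPM in knockout females. Whether the counted reads include the floxed part is not given in the sources used here, so these counts do not check the deletion. All 12 crest and mesenchyme markers were at 1 CPM or more in every RNA library, summing to 1645 to 1887 CPM. All 6 neuronal and neural tube markers were also present, at 1011 to 1024 CPM in wild type, 503 to 860 CPM in the male knockout and 717 to 741 CPM in knockout females. The skeletal muscle markers summed to at most 2.76 CPM, with 0 of 4 at 1 CPM in every library. Blood and macrophage markers, 3 of 5 at that level throughout, summed to 23.98 to 29.2 CPM in wild type, 19.8 and 72.4 CPM in the male knockout and 22.5 to 26.0 CPM in the female knockout. Endothelial markers (1 of 4) summed to 6.42 to 12.1 CPM and epithelial ones (3 of 4) to 9.03 to 12.7 CPM. How far a changing share of neural or blood cells contributed to the histone values was not tested.

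The 2747 regions were short, with a median width of 3214 bp (quartiles 1591.5 and 5252.5 bp, range 315 to 9993 bp). The strongest H3K4me3 peak of a region had a median width of 2575 bp (range 151 to 29752 bp), and H3K4me3 peaks together covered a median of 57.7% of the region (range 0.974% to 100%). In 1178 regions (42.9%) this peak lay wholly inside the H3K27me3 region, in 473 (17.2%) it enclosed the region, and in 1096 (39.9%) it passed 1 end only. Most regions, 2490 (90.6%), held 1 H3K4me3 peak, and none held more than 3. In the plot of peak coverage by distance, H3K27me3 covered 43.2% and 43.7% of regions 2000 bp to either side of the H3K4me3 centre, where H3K4me3 itself covered 24.5% and 24.7%.

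**Figure D1:**
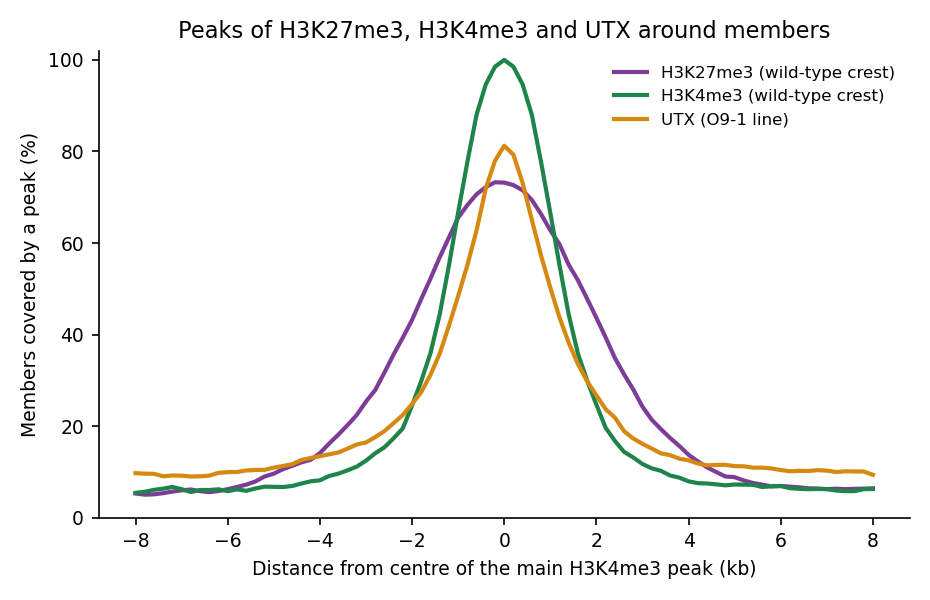
Percentage of the 2747 bivalent regions with a UTX peak that were covered by an H3K27me3, H3K4me3 or UTX peak (y axis) at each distance from the centre of the region's strongest H3K4me3 peak (x axis, kb, steps of 200 bp). H3K4me3 is at 100% in the centre by construction, where UTX reaches 81.3% and H3K27me3 73.2%, and 2000 bp to either side H3K27me3 covers more regions than the other lists, while 8000 bp to the right UTX is the highest at 9.39%.

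UTX coincided with the H3K4me3 part of the regions more closely than with their middle. The strongest UTX peak touched the strongest H3K4me3 peak in 2640 regions (96.1%). The rule asked only that each touch the H3K27me3 region, but in short regions this makes contact likely. In the 473 regions that the H3K4me3 peak enclosed, the rule fixed the contact. The share to be met without any preference was not computed. Its centre lay a median of 447.5 bp from the H3K4me3 centre and 889 bp from the centre of the H3K27me3 region. In 1487 regions (54.1%) the UTX and H3K4me3 centres were within 500 bp of each other. UTX peaks covered a median of 39.0% of a region and had a median width of 1971 bp, against 1485 bp over all 21656 autosomal UTX peaks. The regions were touched by 2732 UTX peaks, and 98 of these touched 2 or more regions, so that 197 regions share a UTX peak with a neighbour and are not independent of it.

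The UTX signal itself was modest. The authors' fold enrichment over background had a median of 2.14 in these regions and 2.09 over all autosomal UTX peaks, and their −log10 q had medians of 2.15 and 2.03. In 669 regions (24.4%) even the strongest UTX peak had a q above 0.05, against 29.3% of all autosomal UTX peaks, and 436 regions had a −log10 q of 5 or more. At the lower edge of the rule, 97 regions (3.53%) shared less than 100 bp with either list. The smallest overlap was at chr8:72178997-72179835, where UTX covered 0.119% of the 839 bp, and 1992 regions (72.5%) shared 500 bp or more with both lists. At the upper edge of width, chr3:29908446-29918438 (9993 bp) was the widest region kept, with H3K27me3 at 69.2 ± 1.40 CPM in wild type and 68.5 ± 0.505 CPM in knockout females (SD, n = 3 each). The narrowest region left out for its width, chr10:126512209-126522223 (10015 bp), held 130.3 ± 2.63 and 143.8 ± 5.02 CPM.

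The regions with the strongest UTX peaks did not share a direction of H3K27me3 change. The highest UTX score lay at chr19:11888643-11897007, with a fold enrichment of 9.21 and a −log10 q of 33.2. H3K27me3 there was 113, 117 and 113 CPM in wt1 to wt3 and 103, 108 and 103 CPM in fko1 to fko3, a difference of −0.12 ± 0.03 on the log2 scale (SE, edgeR adjusted p = 0.00254). The groups did not overlap, but the call was lost when the fit held the wild-type-called entries alone (−0.08, adjusted p = 0.0817). At chr12:113366759-113372693, with a UTX fold enrichment of 8.25, H3K27me3 was lower in all 3 female knockout libraries, at 36.3, 40.4 and 36.7 CPM against 52.4, 48.3 and 46.1 CPM (−0.37 ± 0.05, edgeR adjusted p = 2.72e-13). The other 3 regions of highest UTX score, chr2:155575221-155577696, chr12:78340543-78341853 and chr3:96511353-96512187, had fold enrichments of 9.08, 7.78 and 7.45. Their H3K27me3 differences of 0.00, 0.26 and −0.18 on the log2 scale were not called (edgeR adjusted p of 0.995, 0.0557 and 0.613). The chr12:78340543-78341853 result was called with fko3 left out (adjusted p = 0.0422), with wt3 left out (0.0129) and in the fit of wild-type-called entries alone (0.0188).

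Wild-type levels of both marks were above those of the bivalent regions without UTX. Median H3K27me3 was 3.66 CPM per kb, against 2.81 in bivalent regions without UTX, 1.96 in regions without H3K4me3 and 10.2 in regions of 10000 bp or more. H3K4me3 peaks in the regions had a median of 8.53 CPM per kb, against 4.24 in bivalent regions without UTX and 2.68 in peaks outside H3K27me3. Across the 2747 regions the levels of both marks were nearly unrelated (Spearman's rho of −0.00 between CPM per kb values). UTX counts per kb followed H3K4me3 (rho 0.30) and not H3K27me3 (rho −0.07); regions share the libraries and their mappability, and these coefficients are descriptions only. The regions made up 11.4% (chromosome 9) to 21.7% (chromosome 10) of the wild-type H3K27me3 regions of a chromosome. Few of them, 2.66%, lay within 10000 bp of a wide H3K27me3 region, against 3.43% of bivalent regions without UTX and 9.36% of regions without H3K4me3. The next of these regions was a median of 117022 bp away, and 386 (14.1%) had one within 10000 bp.

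One region stood far above the rest. At chr17:39979807-39985936 H3K27me3 was 5074, 4897 and 4799 CPM in wt1 to wt3 (803 CPM per kb), 6000.4, 5947 and 5936 CPM in fko1 to fko3, and 5375 CPM in mko1. All 3 female knockout libraries were above all wild-type ones, by 0.28 ± 0.03 on the log2 scale (edgeR adjusted p = 6.59e-22). The next densest regions, chr8:72895171-72902873 and chr16:35980780-35982650, held 29.0 and 27.7 CPM per kb. They were higher by 0.10 (edgeR adjusted p = 0.00412, lost without TMM scaling at 0.0839) and by 0.17 (edgeR adjusted p = 0.000788, lost without wt2 at 0.0990). The densest region also held 8167 UTX counts, the most of any, and its H3K4me3 was 22.2 CPM in wild type. Whether it holds repeated sequence was not tested, so its values cannot be taken as those of a single-copy locus.

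In the female knockout the regions lost and gained H3K27me3 about equally often, and mostly by little. Of 2744 regions tested, 469 (17.1%) were higher and 480 (17.5%) were lower than in wild type (edgeR, adjusted p under 0.05). Over all autosomal entries 13.9% were higher, 11.9% were lower and 25.8% were called in either direction, against 34.6% (949) of the regions. Among bivalent regions without UTX 28.8% were called, and among wide regions 49.8%, with 37.2% higher and 12.6% lower. A rise of more than 1.5-fold was seen in 62 regions and a fall of that size in 51, and 7 and 3 passed 2-fold. Over all 33893 entries tested, 798 rises and 753 falls passed 1.5-fold, and 123 and 172 passed 2-fold. The median log2 fold change was −0.02, against 0.00 over all entries. In sorted populations, a mark in fewer cells and less of it per cell cannot be told apart.

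The balance of rises and falls depended on the scaling. Scaling by total counts gave 368 rises and 645 falls, DESeq2 gave 318 and 266, and a fit of the wild-type-called entries alone gave 642 and 352. The regions were called on pooled wild-type libraries, the same ones that enter the comparison. Of the 144 regions (594.5 bp median width) with no H3K27me3 call in the female knockout, 25 (17.4%) were lower, 0 were higher, and the median log2 fold change was −0.41. Choosing regions by a missing knockout call itself favours falls over rises. The 2603 regions (94.8%) also called in the female knockout held 469 rises and 455 falls (17.5%) with a median of −0.01. The mirror rule, which takes H3K27me3 and H3K4me3 from the female knockout lists, found 2722 regions, of which 571 were higher and 380 lower.

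**Figure D2:**
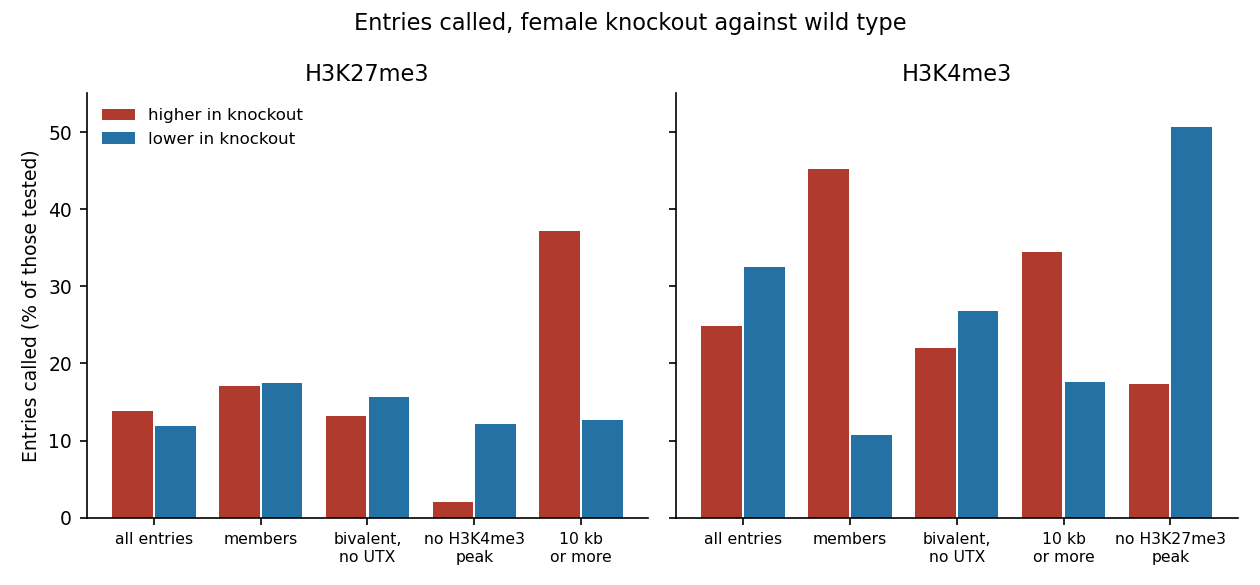
Percentage of entries tested (y axis) that were called higher or lower in the female knockout than in wild type (edgeR adjusted p under 0.05) for H3K27me3 (left) and H3K4me3 (right), over all autosomal entries and by class of region (x axis). "Members" are the bivalent regions with a UTX peak: 17.1% higher and 17.5% lower for H3K27me3, and 45.2% higher and 10.8% lower for H3K4me3.

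Called changes of H3K27me3 were more frequent at higher levels. All entries were split into 10 bins of equal size by mean level, bin 1 the lowest. Of the regions 59.5% were in the top 4 bins, and in those the median H3K27me3 log2 fold change of the regions ran from −0.04 to 0.03, close to that of all entries (−0.00 to 0.04). In bin 1 it was −0.25 for the regions against −0.05 for all entries, over 114 regions of which 0 were called higher and 2 lower. The regions were also divided into 3 groups of equal size. By wild-type H3K27me3 density, 89 and 84 regions were called higher and lower in the thinnest group, 157 and 198 in the middle group and 223 and 198 in the densest. By width, the narrowest group held 68 rises and 97 falls and the widest held 227 and 205. More calls need not mean larger changes, since precision also grew with level. Regions without H3K4me3 (median level 1.08 log2 CPM) had a median SE of 0.21 and a median called change of 0.58 on the log2 scale. In wide regions (7.16 log2 CPM) these were 0.03 and 0.13. How far precision accounts for the calls was not tested.

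**Figure D3:**
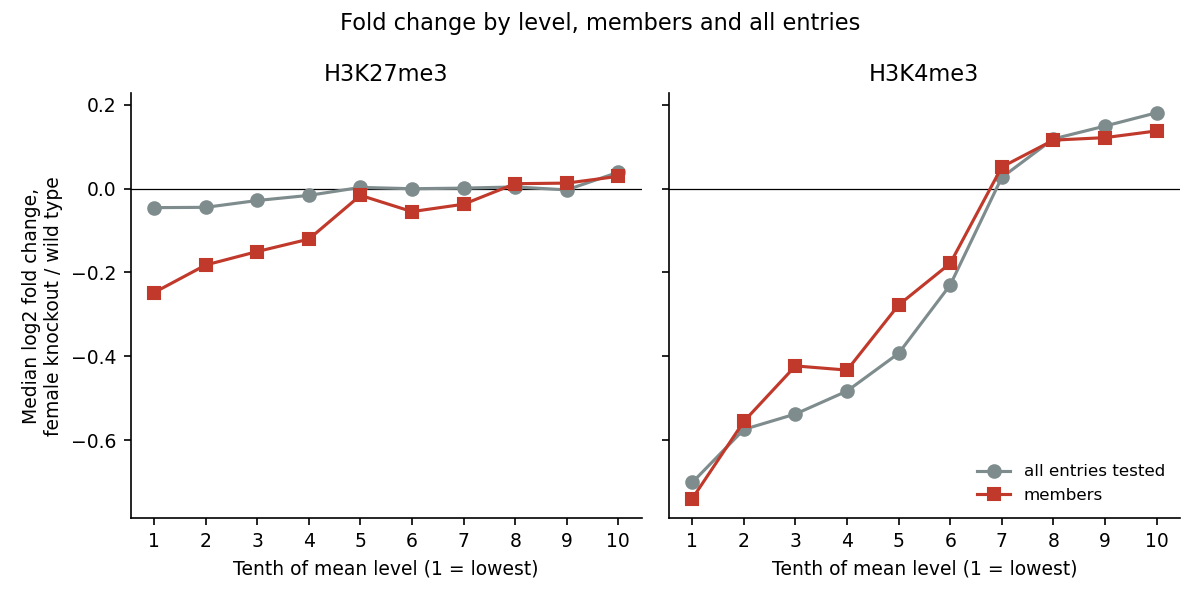
Median log2 fold change, female knockout over wild type (y axis), in 10 bins of mean level over all entries tested (x axis, 1 the lowest), for all entries and for the bivalent regions with UTX ("members"). For H3K27me3 (left) the regions lie below all entries in the lower bins, at −0.25 in the lowest, while for H3K4me3 (right) both lines climb together, from −0.70 to 0.18 for all entries.

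The balance of H3K27me3 calls differed with how much of a region H3K4me3 covered, while median changes stayed near 0. Divided into 3 equal groups, the regions least covered by H3K4me3 (up to 44.2% of their length) held 121 rises and 201 falls. The most covered group (74.2% and more) held 154 rises and 118 falls, and the middle group 194 and 161. Median log2 fold changes were −0.03, −0.04 and −0.01 in the same order. The 5 rises of smallest p were covered by H3K4me3 over 70.3% to 90.5% of their length, and the 5 falls over 6.18% to 44.5%, whereas both chr12:112776422-112778502 and chr7:137788964-137789474, which fell by more than 2-fold, were wholly covered. These counts carry no test of their own. Median H3K27me3 density was 4.44 CPM per kb in the least covered group, 4.46 in the middle group and 2.70 in the most covered group. Whether density bears on the balance of calls was not tested.

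The rises and falls named next were picked by smallest p in this comparison, a choice that favours groups without overlap. The clearest rise was at chr2:26356115-26360644, a region of 4530 bp of which H3K4me3 covered 89.6% and UTX 93.9%. H3K27me3 was 36.1, 36.7 and 34.1 CPM in wt1 to wt3 and 66.8, 66.2 and 65.6 CPM in fko1 to fko3. Every knockout library was far above every wild-type one, by 0.89 ± 0.05 on the log2 scale (SE, edgeR adjusted p = 2.41e-82), while its H3K4me3 was 50.1 ± 1.85 and 48.2 ± 0.702 CPM (SD, n = 3 each) and was not called (edgeR adjusted p = 0.141). At chr6:29381195-29385632 H3K27me3 went from 26.9, 23.4 and 26.6 CPM to 50.6, 49.997 and 47.0 CPM (0.95 ± 0.05, edgeR adjusted p = 1.16e-71). Here the groups again did not overlap, and UTX covered the whole region at a fold enrichment of 2.43. At chr2:121121317-121124417 the values were 19.6, 20.2 and 19.3 CPM in wild type and 41.0, 37.8 and 42.6 CPM in knockout females, the largest change of these 5 (1.03 ± 0.06, edgeR adjusted p = 2.09e-70). Both of the last regions fell in H3K4me3, by 0.53 and 0.29 on the log2 scale (edgeR adjusted p of 5.32e-23 and 5.78e-09).

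Of the other rises in this set, chr15:98458361-98467139 held 41.2, 40.4 and 39.6 CPM in wild type and 67.6, 69.6 and 68.3 CPM in knockout females (0.76 ± 0.04, edgeR adjusted p = 9.47e-64). Its UTX fold enrichment was 4.22, and its H3K4me3 rose too, by 0.18 (edgeR adjusted p = 5.17e-05). At chr5:141080361-141089418 the counts were higher throughout, at 130.4, 119.8 and 125 CPM against 188, 177 and 179 CPM (0.54 ± 0.03, edgeR adjusted p = 2.05e-59), with no overlap. The male knockout library lay between both groups at all 5 regions, with 49.6, 35.4, 32.8, 54.6 and 154 CPM in the order given.

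**Figure D4:**
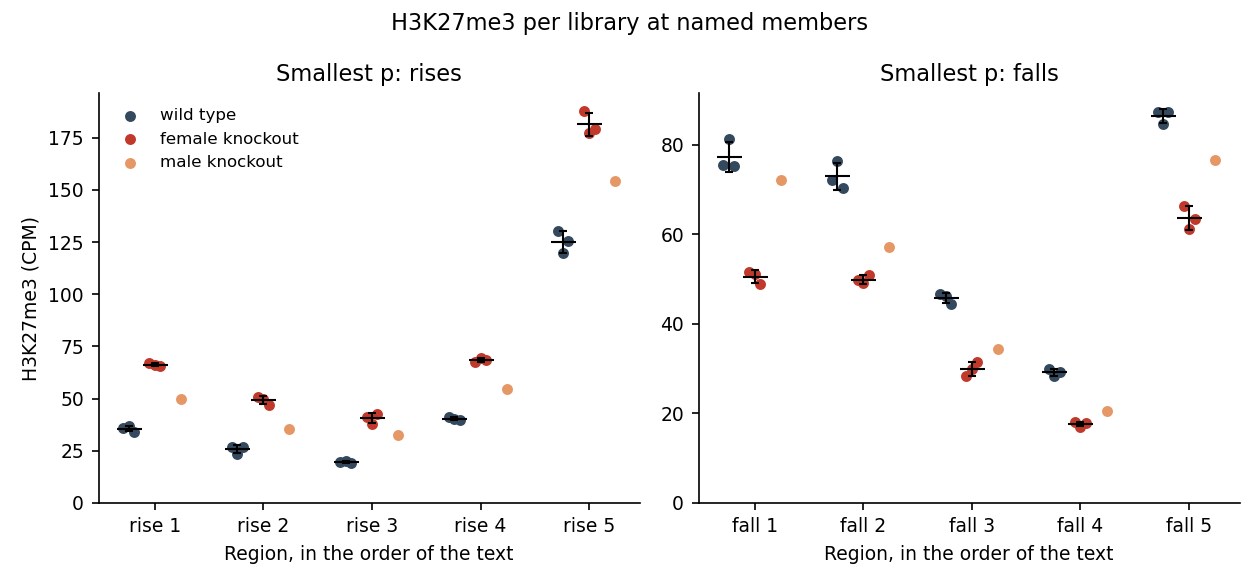
H3K27me3 in CPM (y axis) in each library at the 5 rises (left) and 5 falls (right) of smallest p in the female knockout, numbered in the order of the text (x axis). Points are libraries, and bars are the mean and SD of 3 libraries. The single male knockout library is the point to the right of each group. Wild-type and female knockout libraries do not overlap at any of the 10 regions, which their choice by smallest p favours.

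The clearest fall was at chr17:34132627-34139896, where H3K27me3 was 75.4, 81.2 and 75.2 CPM in wt1 to wt3 and 51.6, 51.1 and 48.9 CPM in fko1 to fko3. It fell by 0.61 on the log2 scale (SE 0.04, edgeR adjusted p = 4.11e-47), and the male knockout library, at 72.1 CPM, stayed near wild type. This region had little of the other features, with H3K4me3 on 6.18% and UTX on 7.62% of its 7270 bp and H3K4me3 at 1.45 ± 0.182 CPM in wild type (SD, n = 3). At chr6:63201336-63211289 the values were 72.2, 76.3 and 70.3 CPM against 49.8, 49.0 and 50.8 CPM (−0.55 ± 0.04, edgeR adjusted p = 3.89e-37). All 3 knockout libraries were below all wild-type ones, and H3K4me3 rose by 0.25 (edgeR adjusted p = 1.67e-06). At chr19:45113056-45121865 the values were 46.6, 46.2 and 44.4 CPM against 28.3, 29.8 and 31.5 CPM (−0.62 ± 0.05, edgeR adjusted p = 7.77e-32), again with no overlap and with a rise of 0.17 in H3K4me3 (edgeR adjusted p = 0.000715).

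The last of these falls lay at chr5:9098531-9103747 and chr17:46429357-46438086. The first held 29.8, 28.4 and 29.3 CPM in wild type and 18.02, 17.0 and 17.7 CPM in knockout females (−0.73 ± 0.06, edgeR adjusted p = 7.38e-29). The second held 87.2, 84.5 and 87.2 CPM and 66.3, 61.1 and 63.3 CPM (−0.44 ± 0.04, edgeR adjusted p = 2.98e-27), and it had one of the stronger UTX peaks, at a fold enrichment of 5.02. Groups did not overlap at either, and H3K4me3 rose at both, by 0.16 and 0.15 (edgeR adjusted p of 0.00467 and 0.00781).

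Changes past 2-fold, a set looked up after its values were seen, came with 1 exception from regions of few counts, with wild-type means of at most 5.21 CPM. The largest rise was at chr17:35838723-35839090, a stretch of 368 bp inside an H3K4me3 peak, with 0.774, 0.923 and 0.714 CPM in wild type, 4.97, 3.96 and 4.26 CPM in knockout females and 1.90 CPM in mko1 (2.44 ± 0.21, edgeR adjusted p = 1.69e-27). The exception was chr2:121121317-121124417, described above, and the other 5 rises had wild-type means of 1.65 to 2.55 CPM. The largest fall was at chr12:112776422-112778502, lying wholly under H3K4me3 and UTX (fold enrichment 5.56), where 6.13, 4.84 and 4.22 CPM became 1.47, 1.41 and 1.52 CPM with 1.04 CPM in mko1 (−1.79 ± 0.18, edgeR adjusted p = 1.85e-21). At chr17:36168208-36169977 the female knockout held 1.98, 1.92 and 1.97 CPM against 5.24, 5.07 and 5.33 CPM in wild type, and mko1 held 4.04 CPM (−1.41 ± 0.17, edgeR adjusted p = 1.24e-15). This fall, the rise at chr17:35838723-35839090 and the clearest fall by p, chr17:34132627-34139896, lie on the same stretch of chromosome 17. These regions may thus not be independent of each other, and whether the sequence of that stretch affected their counts was not tested. The fall at chr7:137788964-137789474 (−1.15, edgeR adjusted p = 0.00541) rested on wt1, which held 1.73 CPM against 0.750 and 0.779 CPM in wt2 and wt3; without wt1 it was −0.63 and not called (adjusted p = 0.290).

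The share of all wild-type-called H3K27me3 counts that fell in the regions was 14.59%, 14.55% and 14.53% in wt1 to wt3, 14.60%, 14.71% and 14.70% in fko1 to fko3 and 14.66% in mko1. Without the densest region, left out after its count was seen, the shares were 13.72%, 13.69% and 13.69% in wild type and 13.60%, 13.69% and 13.68% in knockout females. The small excess in the female knockout rested on that 1 region, and the sign of the difference turned without it. The share of H3K4me3 counts was 14.7% ± 0.0939 in wild type and 15.1% ± 0.0615 in knockout females (SD, n = 3 each), and the groups did not overlap.

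H3K4me3 rose at more of the regions than it fell, by small amounts. The regions touched 2941 H3K4me3 peaks, and of the 2938 tested 1328 (45.2%) were higher and 316 (10.8%) lower in the female knockout (edgeR, adjusted p under 0.05). Over all autosomal H3K4me3 entries 24.8% were higher and 32.5% lower, 57.4% in all, against 56.0% of the peaks in the regions. Peaks in H3K27me3 regions of 10000 bp or more had 34.5% higher and 17.6% lower. Bivalent regions without UTX had 22.1% higher and 26.8% lower, and peaks outside H3K27me3 17.3% and 50.7%. The large changes ran the other way: 20 rises and 131 falls passed 1.5-fold, and 7 and 35 passed 2-fold. This was not particular to the regions. Over all 88217 entries tested, 1632 rises and 20304 falls passed 1.5-fold, and 545 and 7510 passed 2-fold. The median log2 fold change was 0.10 in the regions, also 0.10 in the wide H3K27me3 regions and −0.08 over all entries.

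The direction of that median turned with the scaling, but not its distance from the other peaks. Scaled by total counts alone, 485 peaks were higher and 643 lower with a median of −0.01, while DESeq2 gave 1464 and 157. The fit of wild-type-called entries alone gave 1925 and 227. The median over all entries moved from −0.08 to −0.20 without TMM, and the regions stayed 0.18 above it under both scalings and 0.19 above it under DESeq2. That distance went along with level: 84.0% of the peaks in the regions were in the top 4 of 10 bins of H3K4me3 level, where medians were 0.05 to 0.14 in the regions and 0.03 to 0.18 over all entries.

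The leading H3K4me3 rises by p were both on chromosome 14. Naming peaks by smallest p again favours groups without overlap. At chr14:69901188-69903808 the peak held 31.2, 28.4 and 29.0 CPM in wild type and 69.3, 62.6 and 60.9 CPM in knockout females (1.11 ± 0.04, edgeR adjusted p = 3.74e-62). At chr14:70008380-70012020 it held 40.8, 38.7 and 39.2 CPM and 75.9, 73.9 and 70.7 CPM (0.88 ± 0.04, edgeR adjusted p = 1.54e-52). Both peaks were higher in every knockout library, and the male knockout library was between the groups, at 45.7 and 50.8 CPM. H3K27me3 was not called at the first of these regions (0.21, edgeR adjusted p = 0.433) and rose at the second, from 10.4 ± 0.369 to 15.6 ± 1.56 CPM (SD, n = 3 each; 0.58, edgeR adjusted p = 8.21e-11).

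Among the other rises of smallest p, chr17:15672943-15673967 held 6.04, 6.73 and 5.79 CPM in wild type and 12.7, 12.1 and 13.4 CPM in knockout females, with 13.1 CPM in mko1 (1.04 ± 0.08, edgeR adjusted p = 1.29e-27). The peak at chr2:17960330-17981671, which is 21342 bp wide and holds its H3K27me3 region at 1 end, went from 188, 183 and 183 CPM to 262, 244 and 229 CPM and stood at 315 CPM in mko1 (0.40 ± 0.03, edgeR adjusted p = 7.40e-25). At chr17:48056993-48062970 the values were 50.4, 46.8 and 46.6 CPM against 71.5, 67.8 and 64.5 CPM, with 71.5 CPM in mko1 (0.49 ± 0.04, edgeR adjusted p = 2.92e-24). Groups did not overlap at any of the 3. H3K27me3 fell slightly at the first of them (−0.15, edgeR adjusted p = 0.0273) and was not called at the others (−0.19 and −0.03, edgeR adjusted p of 0.243 and 0.806).

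The H3K4me3 falls of smallest p included the region that also led the H3K27me3 rises on chromosome 6. The peak at chr6:29382805-29387194 went from 43.4, 42.9 and 43.4 CPM to 31.8, 29.1 and 29.1 CPM (−0.53 ± 0.04, edgeR adjusted p = 5.32e-23), where H3K27me3 rose by 0.95 (above). At chr6:47600514-47601641 both marks fell: H3K4me3 from 22.9, 22.5 and 22.5 CPM to 12.6, 11.4 and 10.6 CPM (−0.98 ± 0.06, edgeR adjusted p = 7.60e-37) and H3K27me3 from 5.28 ± 0.643 to 2.80 ± 0.344 CPM (SD, n = 3 each; −0.92, edgeR adjusted p = 3.21e-08). Wild-type and knockout libraries were apart for both peaks.

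At chr15:101927810-101938904 H3K4me3 went from 58.2, 55.1 and 59.2 CPM to 44.4, 44.0 and 42.9 CPM (−0.41 ± 0.04, edgeR adjusted p = 1.52e-17), and its H3K27me3 region rose by 0.65 (edgeR adjusted p = 7.24e-09). At chr9:58156089-58161638 it went from 27.3, 25.4 and 25.3 CPM to 18.5, 18.5 and 18.8 CPM (−0.49 ± 0.05, edgeR adjusted p = 9.63e-16), while H3K27me3 rose from 15.3 ± 0.805 to 27.6 ± 0.799 CPM (SD, n = 3 each; 0.85, edgeR adjusted p = 1.44e-35). In these regions the marks moved in opposite directions, with no overlap between the groups in H3K4me3. The remaining fall, chr15:76034052-76039797 (20.4, 21.0 and 22.8 CPM against 14.7, 14.5 and 14.8 CPM; −0.56 ± 0.06, edgeR adjusted p = 5.59e-17), had no called change of H3K27me3 (0.02, edgeR adjusted p = 0.934).

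Read together at each region, H3K4me3 rose more often where H3K27me3 fell than where H3K27me3 rose. Of the 480 regions where H3K27me3 fell, the strongest H3K4me3 peak rose in 299 (62.3%) and fell in 9 (1.88%). Of the 469 where H3K27me3 rose, it rose in 167 (35.6%) and fell in 84 (17.9%). H3K4me3 rises thus outnumbered falls there too, though not when scaled by total counts alone (below). The 1795 regions with no H3K27me3 call lay between, with 886 (49.4%) rises and 150 (8.36%) falls. Median H3K4me3 log2 fold changes were 0.15, 0.06 and 0.11 in the same order, and the 3 sets had nearly the same median H3K4me3 level (4.61, 4.63 and 4.62 log2 CPM). Their median H3K27me3 levels differed, at 4.01, 4.64 and 2.98 log2 CPM, and the part played by that level was not tested. Across the 2744 regions the fold changes of both marks had a Pearson's r of −0.18 and a Spearman's rho of −0.20, given as a description because the regions share their libraries.

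The same counts were made under alternatives added after the values were seen. Scaled by total counts alone, H3K4me3 rose at 24.8% of regions where H3K27me3 fell and at 10.6% of those where it rose, and fell at 8.22% and 38.3%. With DESeq2 the rises were 69.9% and 38.4%, and the falls 0.376% and 7.55%. In bivalent regions without UTX, H3K4me3 rose at 42.7% of those with an H3K27me3 fall and at 17.0% of those with a rise, and fell at 12.6% and 26.2%. Their regions with no H3K27me3 call did not lie between for falls, with H3K4me3 higher at 21.1% and lower at 28.6%, and the fold changes of both marks had an r of −0.02 and a rho of −0.11 over 7273 regions. The difference between both kinds of region was not tested. In the male knockout the H3K4me3 rises were 44.3% of 88 regions with an H3K27me3 fall and 38.9% of 193 with a rise, and 45.3% of the 2466 without a call, which thus did not lie between. The H3K4me3 falls there were 5.68%, 12.95% and 9.49% in the same order.

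**Figure D5:**
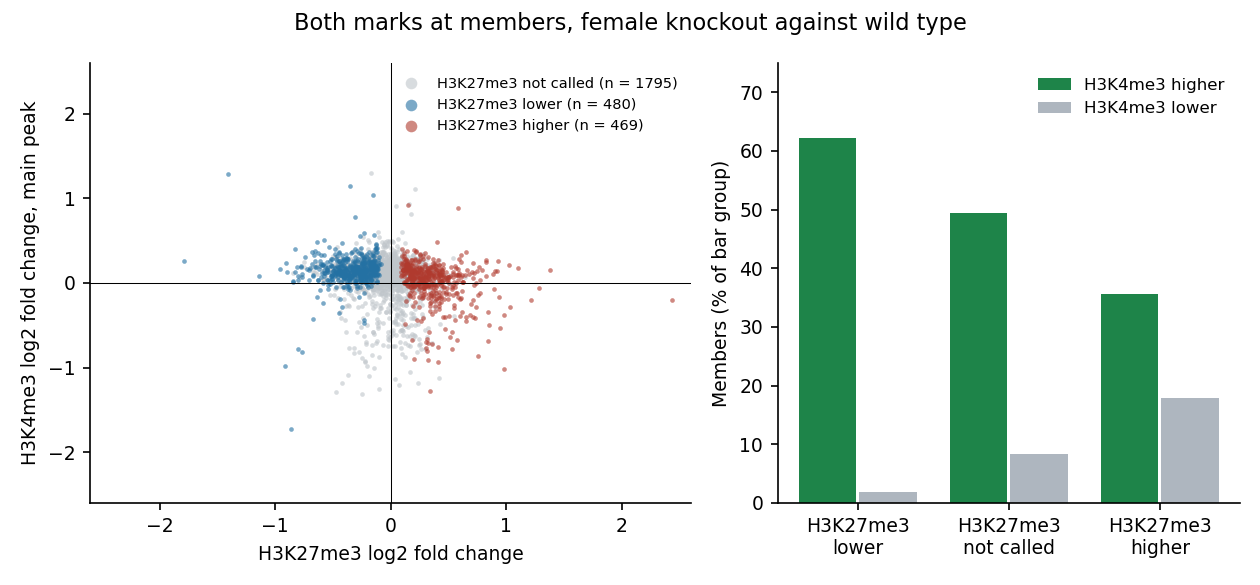
Left, log2 fold change of H3K4me3 at the strongest peak (y axis) against that of H3K27me3 (x axis), female knockout over wild type, for 2744 bivalent regions with UTX, coloured by their H3K27me3 call. Right, percentage of the regions of each H3K27me3 call (y axis) at which H3K4me3 was called higher or lower: 62.3% and 1.88% where H3K27me3 was lower, 35.6% and 17.9% where it was higher.

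Calls of either mark were spread over weak and strong UTX peaks alike. In 3 equal groups by UTX −log10 q, H3K27me3 rose and fell at 137 and 171 regions in the weakest group, 174 and 156 in the middle group and 158 and 153 in the strongest. H3K4me3 at the main peak rose at 445, 460 and 450 regions of these groups, and fell at 72, 87 and 84. UTX fold enrichment and H3K27me3 fold change had a rho of 0.03 over 2744 regions, and UTX fold enrichment and H3K4me3 fold change a rho of 0.00 over 2747. UTX strength comes from another cell source than the changes, and 1 library gives no error for it.

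The male knockout, with 1 library per mark, gave fewer calls for H3K27me3. It shares its wild-type controls with the female comparison, and its single library was assumed to vary like the others. As in the female comparison, the share called for H3K27me3 was larger in wide regions than in these, and smaller in bivalent regions without UTX. H3K27me3 was higher at 193 and lower at 88 of 2747 regions, 10.2% in all against 6.94% of all entries (4.28% higher, 2.66% lower), with a median log2 fold change of 0.01. Without TMM the counts were 141 and 132 and the median was −0.03. H3K4me3 was higher at 1209 and lower at 318 of 2941 peaks, 51.9% against 49.3% of all entries (23.3% higher, 26% lower), with a median of 0.13; without TMM, 596 were higher and 730 lower, and the median was −0.02.

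At the 5 named H3K27me3 rises the male knockout differed from wild type by 0.48, 0.47, 0.73, 0.44 and 0.30 on the log2 scale, each called (edgeR adjusted p of 3.57e-10, 1.71e-07, 3.95e-16, 2.79e-09 and 8.66e-09). At the 5 falls it differed by −0.10, −0.35, −0.42, −0.51 and −0.17, all called except the first (edgeR adjusted p of 0.301, 1.81e-07, 3.83e-07, 5.45e-07 and 0.0239). These 10 regions were picked for their values in the female knockout libraries, which enter the comparison of both knockouts too, so its direction there is favoured by that choice and the male arm is 1 library. With that limit, the female exceeded the male in H3K27me3 at all 5 rises, by 0.42, 0.48, 0.30, 0.33 and 0.23 (edgeR adjusted p of 2.72e-09, 2.02e-09, 0.00229, 7.58e-06 and 3.05e-05). For the falls the difference was called at chr17:34132627-34139896 (−0.51), chr6:63201336-63211289 (−0.20, edgeR adjusted p = 0.0443) and chr17:46429357-46438086 (−0.27, edgeR adjusted p = 0.000206), and not at the other two (−0.20 and −0.22, edgeR adjusted p of 0.141 and 0.235). Over all regions, H3K27me3 differed between the knockouts at 130 of 2747 (71 higher and 59 lower in the female), against 2.84% of all entries (1.41% higher, 1.43% lower). H3K4me3 differed at 546 of 2941 peaks (205 higher, 341 lower), against 11.9% of all entries (4.66% higher, 7.25% lower). An excess over all entries was not particular to these regions. For both marks bivalent regions without UTX exceeded all entries too, and the share was higher still in H3K27me3 regions of 10000 bp or more. Sex and the single male library cannot be told apart from each other in these differences.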

How the data were processed

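Per the submitters' processing notes, Trimmomatic, Bowtie2, SAMtools, bedtools and MACS2 were used for chromatin and TopHat2 and HTSeq for RNA, on build mm9, with versions and settings not given in the sources used here. The deposited histone tables give unnormalised counts of reads in broad peaks of wild-type and female knockout crest, and a stretch called for both genotypes has an entry for each. Per the labels, histone peaks were called on merged replicates. The authors' −log10 q values and, for UTX, their fold enrichment and counts were used as deposited. The fold and −log10 p of the H3K27me3 lists hold values they cannot take and were left out. The deposited RNA counts served for markers and Kdm6a only.

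Overlaps were computed in Python 3.11.15. Counts on chromosomes 1 to 19 were tested in R 4.3.3 by the quasi-likelihood method of edgeR 4.0.16, after filterByExpr and with TMM scaling, over all entries of a mark at once, with Benjamini-Hochberg adjustment and a threshold of 0.05. The female comparison used 6 libraries; the male knockout was tested in a fit of all 7. CPM values use the TMM factors of the 7 libraries, except the densities and shares by class, which use plain totals. DESeq2 1.42.0 was an alternative. The fits were tested on simulated data with known changes. Deviations of same-numbered wild-type and female knockout libraries correlated at −0.00, −0.01 and 0.01 for H3K27me3 and 0.11, 0.02 and 0.02 for H3K4me3, so numbers were not taken as pairs.

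Named regions were, per mark, the 5 of smallest p in each direction in the female comparison, the 5 of highest UTX score, the 3 densest and those next to the limits of the rule; regions on chromosome 18 were counted but not named. The regions, lists and tests were chosen with earlier results of these data known. The planned comparison with RNA of nearby genes was not made, since no mm9 annotation was used. Of the 35 samples listed, the input libraries were not used here.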

Additional observations from a re-analysis of the deposited data

Results flagged for a closer look

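Female and male knockouts were compared directly in the fit of 7 libraries, and each result here is a difference between them called by edgeR at an adjusted p under 0.05. H3K27me3 differed at 130 of 2747 bivalent regions with UTX, 71 higher and 59 lower in the female, which is 4.73% against 2.84% of all entries. The difference of smallest p was at chr3:96298720-96301999, where mko1 held 6.80 CPM, fko1 to fko3 held 16.1, 15.9 and 15.2 CPM and wt1 to wt3 held 20.5, 20.8 and 19.4 CPM (female minus male 1.21 ± 0.13 SE on the log2 scale, edgeR adjusted p = 4.63e-17). At chr17:34132627-34139896 the male library, at 72.1 CPM, was close to wild type (77.3 ± 3.38 CPM, SD, n = 3) and the female libraries were lower (50.5 ± 1.42 CPM), a difference of −0.51 (edgeR adjusted p = 9.87e-16).

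H3K4me3 differed at 546 of 2941 peaks of the regions, 205 higher and 341 lower in the female, which is 18.6% against 11.9% of all entries. At chr17:44940287-44955668 mko1 held 45.6 CPM, against 79.6, 79.1 and 78.5 CPM in the female knockout and 80.0, 83.5 and 80.9 CPM in wild type (0.79, edgeR adjusted p = 1.26e-34). At chr7:106415757-106420522 mko1 was the highest library, at 43.8 CPM, against 27.4, 24.8 and 24.3 CPM in the female knockout and 22.7, 20.7 and 22.1 CPM in wild type (−0.78, edgeR adjusted p = 3.73e-29). For both marks the share of differences was higher still in H3K27me3 regions of 10000 bp or more, and bivalent regions without UTX also exceeded all entries. Sex differs between both knockouts and the male has 1 library, so sex and that single library cannot be told apart from each other here.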

How the results depend on the processing

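The alternatives changed the scaling, tool, filter, block, entries fitted, libraries and rule. Of 203 recomputed counts and medians, 181 kept their direction and stayed within 1.5 times or 1 SD of the reported value. Without TMM the H3K27me3 median was −0.0645 (female) and −0.0260 (male), the H3K4me3 median −0.0135 and −0.0242, and H3K4me3 was higher at 16.5% and 20.3% and lower at 21.9% and 24.8% of peaks. With DESeq2, H3K27me3 was lower at 11.6% of the 2301 regions it tested in the female; in the male, where it tested 1766, it called 4.93%, 3.79% higher and 1.13% lower. Its H3K4me3 falls were 5.34% (female) and 4.10% (male), with medians of 0.170 and 0.196. Fitting wild-type-called entries alone gave medians of 0.0271 for H3K27me3 and 0.191 for H3K4me3. The H3K27me3 median was −0.00713 with 500 bp shared, −0.00915 for regions also called in the female knockout and 0.0328 under the mirror rule. Asking for a UTX −log10 q of 5 left 436 regions. Without the densest region the share of counts in the female minus wild type was −0.0435 percentage points (0.114 with it). The cause of these shifts was not tested.

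With the replicate number as a block, which does not pair these samples, H3K27me3 was higher at 479 and lower at 485 regions, and H3K4me3 at 1462 and 336 peaks. Leaving out each library in turn gave 28.8% to 31.2% of regions called for H3K27me3 and 44.1% to 57.3% of peaks for H3K4me3 in the female, and 8.01% to 11.4% and 44.9% to 54.9% in the male. Of 464 recomputed values for named regions, 457 kept their call. Counts of a few CPM limit the narrow regions, UTX rests on 1 library of another cell source, and 1 male library gives that arm no spread of its own.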
